A study of Mus musculus with 16 samples.

Results

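The p53 target genes are genes whose transcription the tumour suppressor p53 (gene Trp53) is known to activate. A list of 32 of them was read out of the count tables by gene symbol, and each of the 32 was found among the 18635 genes listed. They were followed through RNA-seq of mouse tumours that lacked or kept 53BP1 (gene Trp53bp1), a DNA repair protein first found as a partner of p53.

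The series holds 16 tumour libraries from 2 mouse cancer lines grown in syngeneic mice. ID8 is an ovarian cancer line, and KPC cells derive from a mouse model of pancreatic cancer. The groups were ID8 cells knocked out for Trp53bp1 (labelled Trp53bp1 KO, n = 3), ID8 cells of wild-type genotype (WT, n = 3), KPC cells knocked out for Trp53bp1 (n = 5) and KPC cells of wild-type genotype (n = 5). Wild type refers here to Trp53bp1. Further alleles, age, sex and implantation site of the mice are not given in the sources used here, and neither is the number of clones behind each knockout line, so that a knockout effect and a difference between clones cannot be told apart. The replicates are labelled biological replicates of a tumour. The totals lay between 17902867 and 19727536 expected counts per library.

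In unstressed cells p53 is kept low by MDM2, which marks it for destruction, and by MDM4, which blocks its activity. DNA damage frees it from both, and it then binds a response element built from a pair of half-sites and raises transcription of genes that halt the cell cycle, repair DNA or kill the cell, along with MDM2 itself. 53BP1, together with the deubiquitinase USP28, can promote transcription by p53. ID8 cells are generally described as carrying intact Trp53, whereas the mouse model behind KPC lines carries a mutant Trp53 allele.

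Matches to the response element are shown for 5 members, since p53 is known to act on its targets through this kind of sequence. RefSeq promoter windows (build GRCm38.p6, 250 bases before to 50 bases after a transcription start) were at hand for 23 of the 32 members. They were searched for the p53 consensus, whose half-sites mirror each other so that 1 search covers both strands, with a spacer of 0 or 1 base. With at most 1 mismatch it was present in 4 of the 23 members, Cdkn1a, Ccng1, Gtse1 and Rps27l, and in 0.13% of the 27025 genes with a window. Allowing 2 mismatches added Bax, giving 5 of 23 members, against 0.807% of all genes. Capitals mark the site. The 250 bases upstream of the start are printed for Cdkn1a (chr17:29090729-29090978, plus strand, in front of 1 of its 2 starts, which lie 2790 bases apart), Ccng1 (chr11:40755287-40755536, minus strand) and Bax (chr7:45466899-45467148, minus strand). The site alone is printed for Gtse1 (chr15:85859945-85859964, plus strand) and Rps27l (chr9:66946296-66946315, plus strand).
Cdkn1a: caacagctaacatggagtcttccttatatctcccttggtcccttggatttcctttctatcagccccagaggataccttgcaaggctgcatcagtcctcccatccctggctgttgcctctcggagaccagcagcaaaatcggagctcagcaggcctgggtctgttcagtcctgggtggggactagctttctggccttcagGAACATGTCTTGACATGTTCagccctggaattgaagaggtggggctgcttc
Ccng1: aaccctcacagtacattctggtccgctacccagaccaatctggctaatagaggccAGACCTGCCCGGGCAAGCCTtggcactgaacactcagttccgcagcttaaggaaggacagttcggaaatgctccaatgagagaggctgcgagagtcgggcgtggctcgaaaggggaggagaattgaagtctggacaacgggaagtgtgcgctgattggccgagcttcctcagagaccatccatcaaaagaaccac
Bax: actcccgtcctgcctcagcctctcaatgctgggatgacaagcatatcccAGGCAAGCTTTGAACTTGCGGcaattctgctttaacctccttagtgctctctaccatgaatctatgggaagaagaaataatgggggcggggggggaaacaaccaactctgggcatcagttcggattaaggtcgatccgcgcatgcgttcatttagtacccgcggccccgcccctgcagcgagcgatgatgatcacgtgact
Gtse1: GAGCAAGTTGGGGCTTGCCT
Rps27l: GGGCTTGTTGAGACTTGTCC
The Cdkn1a site ran from 51 to 32 bases upstream of that start, the Ccng1 site from 195 to 176, the Rps27l site from 117 to 98 and the Bax site, with its 1-base spacer, from 201 to 181. The Gtse1 site began 1 base upstream of its start. A single half-site without mismatch was present in 10 of the 23 members and 9.55% of genes. A match describes these letters and not binding. No window was at hand for Ddb2, Perp, Pmaip1, Ptp4a3, Rrm2b, Tnfrsf10b, Trp53inp1, Xpc and Zmat3.

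The targeted gene was lower in both knockouts but not at 0. Trp53bp1 averaged 18.9 ± 0.502 CPM in ID8 knockout and 47.4 ± 2.78 CPM in ID8 wild-type tumours (SD, n = 3 each), a log2 fold change of -1.33 (edgeR adjusted p = 1.15e-10). It averaged 33.8 ± 3.79 CPM in KPC knockout and 50.3 ± 2.93 CPM in KPC wild-type tumours (SD, n = 5 each), a log2 fold change of -0.59 (edgeR adjusted p = 0.004). CPM are counts relative to library size, scaled by the trimmed mean of M-values (TMM) over the 16 libraries. The 2 lines differed in what else the libraries held. The 10 leukocyte markers summed to 3.72 to 5.80 CPM in ID8 knockout and 11.0 to 12.8 CPM in ID8 wild-type libraries. Cd68 alone made up most of these sums, with means of 4.29 CPM in ID8 knockout and 11.8 CPM in ID8 wild type. Ptprc, Cd3e, Cd8a, Adgre1 and Itgam were among those at 0 counts in each ID8 library, although these are labelled tumours. In KPC the sums were 2064 to 3285 CPM in knockout and 1190 to 2726 CPM in wild-type libraries. The 8 fibroblast markers summed to 758 to 807 CPM in ID8 knockout and 953 to 1059 CPM in ID8 wild-type libraries, without overlap. Of the 4 tested in ID8, Col1a1 and Col3a1 were called lower and Dcn higher (log2 fold change 0.41, edgeR adjusted p = 6.40e-06). Pdgfra did not pass, and Pdgfrb, Col1a2, Lum and Fap had too few counts in ID8 to be tested. In KPC the 8 fibroblast markers summed to 15030 to 22990 CPM in knockout and 12060 to 20960 CPM in wild-type libraries. The sums of the 6 epithelial markers moved with genotype, in opposite directions. They were 2854 to 2943 CPM in ID8 knockout against 3698 to 4023 CPM in ID8 wild-type libraries. In KPC they were 7904 to 9709 CPM in knockout against 4696 to 5847 CPM in wild-type libraries. In ID8 4 of the 5 tested were called lower, beside 25.5% of all genes, and in KPC 5 of 6 were higher, beside 6.67%. Cdh1 passed in neither line, and Cldn7 had 0 counts in ID8. The 8 skeletal muscle markers ranged from 17.5 to 5861 CPM in KPC knockout and from 489 to 29540 CPM in KPC wild-type libraries, and 4 KPC libraries (knockout 2 and 5, wild type 2 and 4) had Acta1, skeletal muscle actin, above 1000 CPM. Fewer cells of a type and less RNA per cell cannot be told apart in such libraries.

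In ID8 tumours most p53 target genes were higher in the knockout. The first question was whether loss of Trp53bp1 shifted the list within a line. Of the 31 members tested, 22 rose (71.0%), 2 fell (Pmaip1 and Rrm2b) and 7 did not pass an adjusted p of 0.05 in edgeR's quasi-likelihood test. Over all 11933 genes tested in ID8, 50.8% were called, 25.4% higher and 25.5% lower. The median log2 fold change of the members was 0.31, against 0.01 over all genes. The libraries of both genotypes did not overlap for 23 members on the higher side and 2 on the lower side, where 28.7% and 29.3% of all genes did so. Changes of at least 2-fold were few: Fas, Aen and Pmaip1, against 6.26% of all genes. ID8 replicates differed little, with a biological coefficient of variation of 5.08%, and changes as small as 1.14-fold, in Dcxr, passed the test. When the 4 groups were fitted together, so that the wider spread of KPC entered the test, 9 members rose (Plk2, Mdm2, Bbc3, Fas, Tnfrsf10b, Aen, Ei24, Phlda3 and Zmat3) and 2 fell (Pmaip1 and Rrm2b) in ID8, each of them among the calls above, and the other 13 calls were lost. That joint fit called 2681 of 14921 genes in ID8, where the fit of ID8 alone called 6067 of 11933.

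**Figure D1:**
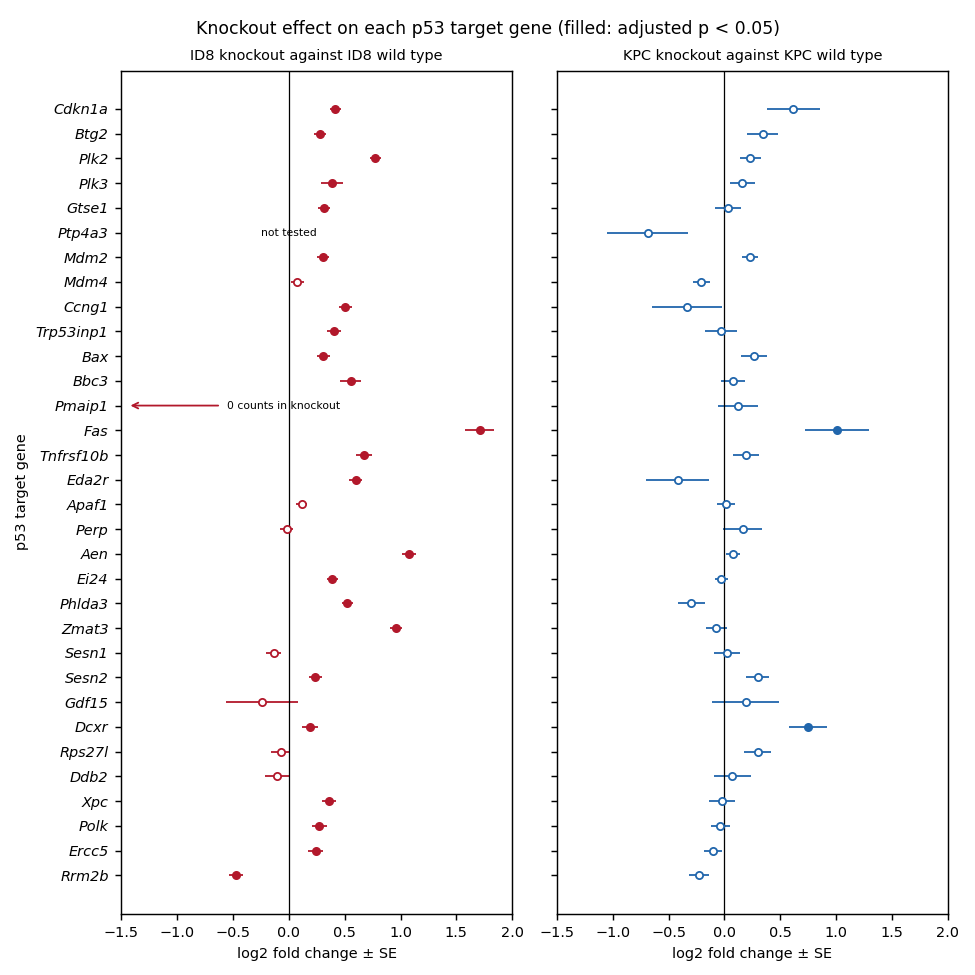
Log2 fold change of knockout against wild type (x axis, ± SE from edgeR) for each p53 target gene (y axis, grouped by role), in ID8 on the left and KPC on the right. Filled points passed an adjusted p of 0.05: 22 of the 31 tested members lie on the right of 0 and filled in ID8, against 2 of 32 (Fas and Dcxr) in KPC. The arrow marks Pmaip1, at 0 counts in ID8 knockout, and Ptp4a3 was not tested in ID8.

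Of the genes of cell cycle arrest and proliferation, 5 of the 5 tested rose in ID8 knockout tumours, beside 25.4% of all genes. Cdkn1a, which encodes the cyclin-dependent kinase inhibitor p21, had 124, 126 and 127 CPM in ID8 knockout and 98.8, 88.8 and 95.7 CPM in ID8 wild-type libraries. Every knockout library lay above every wild-type library. The log2 fold change was 0.41 (edgeR, SE 0.0493, adjusted p = 3.12e-06). In the fit of the 4 groups together it did not pass (edgeR adjusted p = 0.335), and of these 5 genes Plk2 alone did. Plk2, a stress-responsive polo-like kinase, showed the widest change of the group, with 129 to 136 CPM in knockout and 76.5 to 78.0 CPM in wild-type libraries (log2 fold change 0.77). Its relative Plk3 rose by 0.39 on the log2 scale, the antiproliferative gene Btg2 by 0.28 and Gtse1, whose product restrains p53 in G2 phase, by 0.31. Ptp4a3, a phosphatase gene, could not be tested in ID8, where it had 5 counts over the 3 knockout and 6 over the 3 wild-type libraries.

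The feedback genes that act on p53 itself rose in 3 of 4 cases, beside 25.4% of all genes. Mdm2 had 98.6, 90.2 and 92.8 CPM in ID8 knockout and 77.0, 74.9 and 76.4 CPM in ID8 wild-type libraries. The groups did not overlap, and the log2 fold change was 0.31 (edgeR, SE 0.0506, adjusted p = 9.31e-05). Ccng1, encoding cyclin G1, which recruits a phosphatase that activates MDM2, had 561 to 621 CPM in knockout and 393 to 447 CPM in wild-type libraries (log2 fold change 0.51). Trp53inp1, which promotes an activating phosphorylation of p53, rose by 0.40 on the log2 scale. The joint fit kept the call of Mdm2 and lost those of Ccng1 (edgeR adjusted p = 0.363) and Trp53inp1. Mdm4 did not pass, with 64.4 to 73.6 CPM in knockout and 65.1 to 67.3 CPM in wild-type libraries.

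The cell death genes held both the strongest rises and the strongest fall. Of the 12, 9 were higher and 1 lower, beside 25.4% and 25.5% of all genes. Fas, the death receptor for Fas ligand, had 18.5, 20.7 and 20.4 CPM in ID8 knockout and 5.98, 4.54 and 7.74 CPM in ID8 wild-type libraries. Every knockout library lay above every wild-type library, with a wide gap between them. Its log2 fold change was 1.71 (edgeR, SE 0.132, adjusted p = 1.12e-07). Aen, a nuclease that takes part in apoptotic DNA breakdown, had 57.0, 57.1 and 60.2 CPM in knockout and 29.5, 26.3 and 27.2 CPM in wild-type libraries. Again the groups did not overlap, and the log2 fold change was 1.07 (edgeR, SE 0.0606, adjusted p = 4.48e-10). Zmat3, an RNA-binding splicing regulator, had 138, 142 and 133 CPM in knockout and 66.1, 76.9 and 70.0 CPM in wild-type libraries. It showed no overlap either, with a log2 fold change of 0.96 (edgeR, SE 0.0576, adjusted p = 9.29e-10). The other death receptors of the list rose as well, Tnfrsf10b (DR5) by 0.68 and Eda2r by 0.60 on the log2 scale. Among genes acting at mitochondria, Bbc3 (PUMA) rose by 0.55 and Bax by 0.31. Phlda3, an inhibitor of AKT signalling, rose by 0.53 and Ei24 by 0.39. The joint fit kept 7 of these 9 rises and lost Bax and Eda2r. Apaf1, the scaffold of the apoptosome, and the membrane protein gene Perp did not pass.

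Pmaip1, which encodes the pro-apoptotic BH3-only protein NOXA, went the other way. It had 0 counts in each of the 3 ID8 knockout libraries and 9.59, 9.61 and 10.3 CPM in the ID8 wild-type libraries, 546 counts in total. The knockout table has no row for it, and none of the 4 tables has a row at 0 in each of its libraries, so a missing row was read as 0. Against a floor of 3 counts per library, which is 0.157 to 0.158 CPM, the level was at least 62.3-fold lower in ID8 knockout (edgeR adjusted p = 1.68e-11). In KPC the gene was well detected in both genotypes, with 57.9, 47.0, 55.5, 53.3 and 58.5 CPM in knockout and 36.7, 39.6, 60.9, 71.8 and 38.3 CPM in wild-type libraries. Those groups overlapped and the difference did not pass (log2 fold change 0.12, edgeR adjusted p = 0.668).

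**Figure D2:**
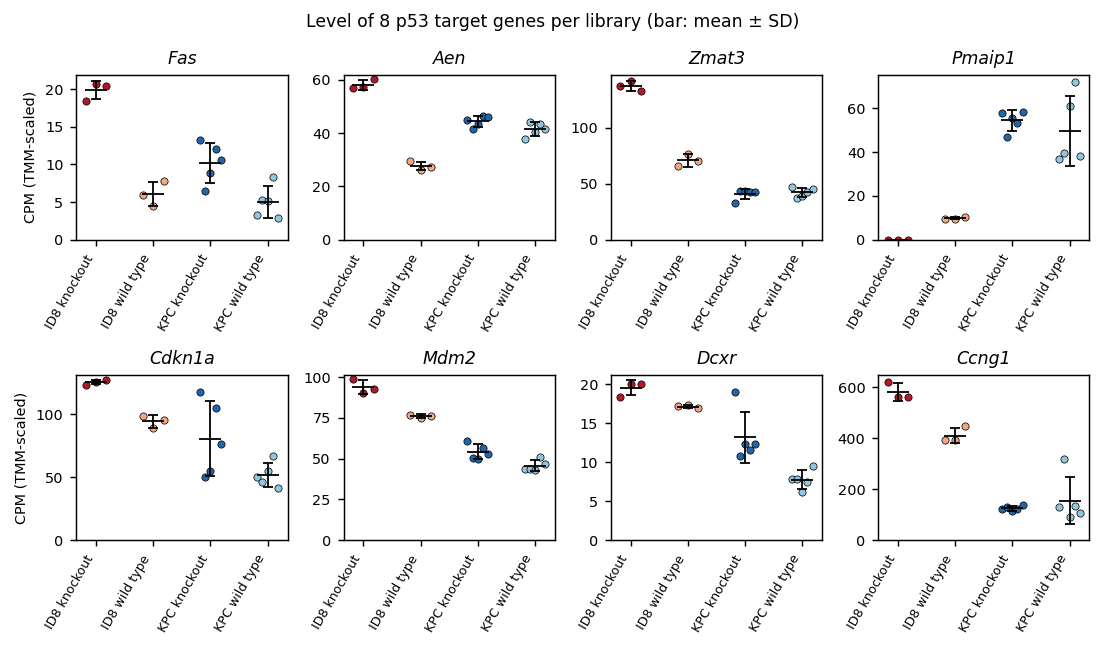
Level of 8 p53 target genes in each library (y axis, TMM-scaled CPM) by group, points being libraries and bars the mean ± SD. Fas, Aen and Zmat3 in ID8 knockout lie above ID8 wild type without overlap, Pmaip1 is at 0 in the 3 ID8 knockout libraries, and 1 KPC wild-type library stands apart for Ccng1 at 319.9 CPM.

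Of the stress and metabolism genes, 2 of 5 rose in ID8 knockout tumours, beside 25.4% of all genes. The median log2 fold change of these 5 was -0.07. Sesn2, a stress-induced inhibitor of mTORC1, had 43.2 to 45.7 CPM in knockout and 36.1 to 39.2 CPM in wild-type libraries (log2 fold change 0.24). Dcxr, a carbonyl reductase of sugar metabolism, had 18.4, 20.1 and 20.1 CPM in ID8 knockout and 17.2, 17.3 and 16.9 CPM in ID8 wild-type libraries. The groups did not overlap, though by little, and the log2 fold change was 0.19 (edgeR, SE 0.073, adjusted p = 0.0373). That call was lost when any 1 of 5 ID8 libraries (knockout 2 or 3, wild type 1, 2 or 3) was left out, with edgeR adjusted p of 0.0701 to 0.111. It was also lost in DESeq2 (adjusted p = 0.133), in the joint fit, which lost Sesn2 too, and with the replicate number as a block (edgeR adjusted p = 0.0549), so that it held in 5 of 13 alternatives. Sesn1 did not pass, and neither did Gdf15, a secreted stress cytokine, at 0.472 to 0.631 CPM in knockout and 0.594 to 0.758 CPM in wild-type libraries. Rps27l, a ribosomal protein gene with a near-identical paralogue that could share its reads, also did not pass.

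Of the genes for DNA repair and nucleotide supply, 3 of 5 rose and 1 fell, beside 25.4% and 25.5% of all genes. Xpc, a damage sensor of nucleotide excision repair, rose by 0.36 on the log2 scale, the translesion polymerase gene Polk by 0.27 and the excision nuclease gene Ercc5 by 0.24. The joint fit lost these 3 calls. Rrm2b, the p53-inducible subunit of ribonucleotide reductase, fell to 24.0, 23.2 and 24.5 CPM in ID8 knockout, against 32.8, 32.8 and 34.3 CPM in ID8 wild-type libraries. The groups did not overlap (log2 fold change -0.47, SE 0.062, edgeR adjusted p = 8.70e-06). Ddb2, the other damage sensor of that pathway, did not pass, at 6.80 to 8.39 CPM in knockout and 7.86 to 8.72 CPM in wild-type libraries.

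**Figure D3:**
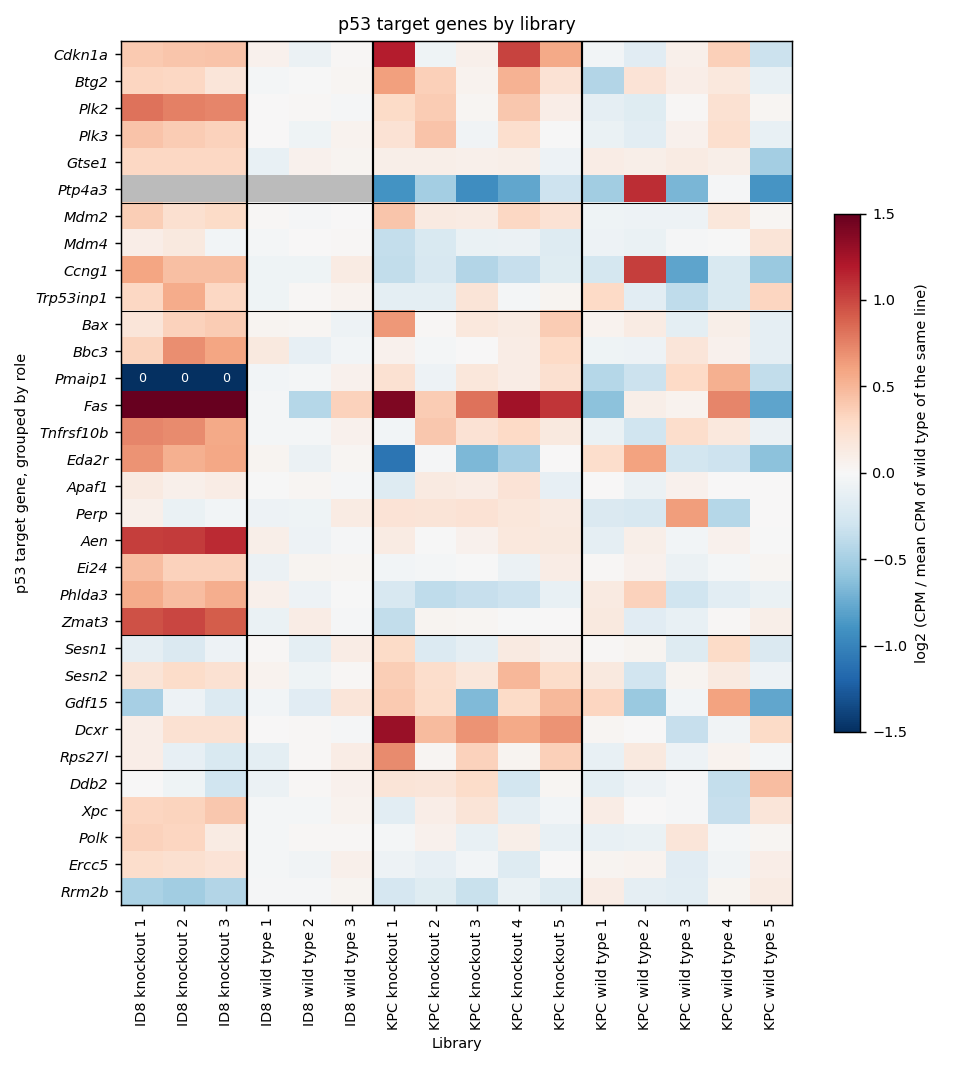
Log2 of each library's CPM over the mean CPM of the wild type of the same line (colour, cut at 1.5 either way) for each p53 target gene (rows, grouped by role) and library (columns). The 3 ID8 knockout columns are red for most rows and alike, a white 0 marks Pmaip1 in these, grey marks Ptp4a3 in ID8, and KPC columns vary within a genotype.

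In KPC tumours few p53 target genes passed the test. Fas and Dcxr rose and none fell of the 32 tested, where 13.7% of the 14283 genes were called, 6.67% higher and 7.01% lower, and 32.5% had an unadjusted p under 0.05. The share of members that rose, 6.25%, was thus near that of all genes. Fas was the 1 member called with at least a 2-fold change, as were 3.85% of all genes. The median log2 fold change of the members was 0.07, against -0.01 over all genes. The spread in KPC was wider than in ID8, with a biological coefficient of variation of 25.1%, and the median SE of a member was 0.0606 in ID8 and 0.116 in KPC. DESeq2 called 5 members higher (Cdkn1a, Mdm2, Fas, Sesn2 and Dcxr), and the fit of the 4 groups together called 7 higher (Cdkn1a, Btg2, Plk2, Mdm2, Fas, Sesn2 and Dcxr) and 1 lower (Rrm2b). The joint fit let the narrower spread of ID8 enter the test of KPC. More genes were called over all in both DESeq2 and the joint fit too. DESeq2 called 3162 of 14283 genes and the joint fit 3524 of 14921, where edgeR on KPC alone called 1953 of 14283.

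Fas had 13.3, 6.53, 8.80, 12.01 and 10.54 CPM in KPC knockout and 3.29, 5.34, 5.21, 8.35 and 2.91 CPM in KPC wild-type libraries. Knockout library 2 lay below wild-type library 4 and the groups overlapped by that pair. The log2 fold change was 1.01 (edgeR, SE 0.286, adjusted p = 0.0411). Leaving out 1 library ended the call in 8 of 10 cases (knockout 1, 3, 4 or 5, or wild type 1, 2, 3 or 5), with edgeR adjusted p of 0.0666 to 0.0939. Fas is also a receptor of leukocytes, whose marker sums had a median of 2829 CPM in KPC knockout and 1598 CPM in KPC wild type, and the part of those cells in the result was not tested.

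Dcxr had 18.97, 10.8, 12.3, 11.5 and 12.3 CPM in KPC knockout and 7.89, 7.80, 6.11, 7.47 and 9.46 CPM in KPC wild-type libraries. The groups did not overlap, as for 5.75% of all genes on the higher side and 6.04% on the lower side, and knockout library 1 stood above the rest. The log2 fold change was 0.74 (edgeR, SE 0.170, adjusted p = 0.0202). Without the 4 libraries with Acta1 above 1000 CPM it was 0.86 and no longer passed (edgeR adjusted p = 0.0565). The sum of the epithelial markers was higher in KPC knockout too, and the part of epithelial cells in the Dcxr difference was not tested.

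Cdkn1a and Mdm2, often used to read p53 activity, did not pass in edgeR when KPC was fitted alone. Both passed in DESeq2 (adjusted p = 0.0398 for Cdkn1a and 0.0229 for Mdm2) and in the joint fit (edgeR adjusted p = 0.0379 and 0.0141). Cdkn1a had 118, 49.8, 54.7, 105 and 76.8 CPM in KPC knockout and 50.6, 46.2, 54.97, 66.5 and 41.5 CPM in KPC wild-type libraries. Knockout libraries 1, 4 and 5 lay above every wild-type library and knockout libraries 2 and 3 among them. The log2 fold change was 0.62 (edgeR, SE 0.235, adjusted p = 0.1003), and it passed without knockout library 2 (edgeR adjusted p = 0.0482). Mdm2 had 60.7, 50.3, 49.8, 56.8 and 53.0 CPM in KPC knockout and 43.5, 43.5, 43.2, 51.3 and 46.8 CPM in KPC wild-type libraries. Wild-type library 4 alone reached into the knockout range, and the log2 fold change was 0.23 (edgeR, SE 0.0712, adjusted p = 0.0579). Without that library it was 0.26 and passed (edgeR adjusted p = 0.0311), as it did in limma-voom (adjusted p = 0.0469). Sesn2 did not overlap, with 13.2 to 16.5 CPM in knockout and 9.63 to 12.95 CPM in wild-type libraries, but missed the threshold (log2 fold change 0.30, edgeR adjusted p = 0.0715).

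For Ccng1 and Ptp4a3 a single KPC library set the value. KPC wild-type library 2, the one with the highest Acta1 at 7291 CPM, had 319.9 CPM of Ccng1, where the other KPC libraries had 89.5 to 137 CPM. The Ccng1 log2 fold change was -0.34 with that library and 0.13 without it, neither passing the test. The same library had 153 CPM of Ptp4a3, against 37.2 to 57.5 CPM in KPC knockout and 38.6 to 70.6 CPM in the other KPC wild-type libraries. The part of muscle tissue in these values was not tested.

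The knockout effects of the 2 lines were then compared directly, as the effect in ID8 minus the effect in KPC. The difference was positive for 7 members (Zmat3, Aen, Phlda3, Plk2, Bbc3, Ei24 and Ercc5) and negative for Pmaip1, out of 32. Over all 14921 genes 21.8% were called, 10.3% positive and 11.6% negative, so the members' share of 21.9% positive calls stands beside 10.3%. Zmat3 differed by 1.01 (edgeR, SE 0.133, adjusted p = 1.10e-04). Its KPC levels were 32.9, 43.7, 43.7, 42.5 and 42.7 CPM in knockout and 47.3, 37.8, 39.5, 43.1 and 45.3 CPM in wild-type libraries, overlapping and with a log2 fold change of -0.07. Aen differed by 0.97 (edgeR, SE 0.0904, adjusted p = 4.38e-06). Its KPC levels were 45.0, 41.4, 43.5, 46.3 and 46.0 CPM in knockout and 37.8, 44.2, 40.5, 43.5 and 41.4 CPM in wild-type libraries, which overlapped. For Phlda3 the difference was 0.80, for Plk2 0.52, for Bbc3 0.45, for Ei24 0.40 and for Ercc5 0.32. The calls of Bbc3 and Ercc5 were the least steady and held in 8 and 13 of 23 alternatives, while Zmat3, Aen, Phlda3, Plk2 and Ei24 passed in each of the 23. Fas did not pass here, at 0.68 (edgeR adjusted p = 0.285), nor did Cdkn1a, at -0.23 (edgeR adjusted p = 0.716), or Dcxr, at -0.58 (edgeR adjusted p = 0.0866). Eda2r, with a difference of 0.99, missed the threshold closely (edgeR adjusted p = 0.0506). Among the 31 members tested in both lines, 15 had the same sign of change and Spearman's rho across these genes was -0.02, a description over genes that are not independent replicates.

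The wild-type tumours alone showed how far the 2 lines differ in these genes before any knockout. In ID8 wild type, 20 members were higher than in KPC wild type, 9 were lower and 3 (Fas, Phlda3 and Ddb2) did not pass in edgeR. Of all 14921 genes 79.8% were called, 33.4% higher and 46.5% lower. The libraries did not overlap for the 20 higher and the 9 lower members, beside 77.3% of all genes (32.7% higher, 44.7% lower). At least 2-fold differences were called for 14 members, beside 43.0% of all genes. The median log2 difference was 0.74 for the members and -0.18 over all genes. Eda2r had 48.7, 44.5 and 48.2 CPM in ID8 wild type and 7.24, 9.16, 5.01, 4.88 and 3.96 CPM in KPC wild type, a log2 difference of 2.96 with no overlap. Gtse1 followed at 1.98, Trp53inp1 at 1.77, Sesn2 at 1.69, Ccng1 at 1.40 and Rrm2b at 1.39. Mdm2 was higher in ID8 wild type by 0.74 and Cdkn1a by 0.86 on the log2 scale.

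Lower in ID8 wild type were Ptp4a3, Pmaip1, Plk3, Tnfrsf10b, Gdf15, Mdm4, Xpc, Aen and Apaf1. Ptp4a3 had 0, 0.162 and 0.162 CPM in ID8 wild type and 49.4, 153, 44.3, 70.6 and 38.6 CPM in KPC wild type. Pmaip1, at 9.59 to 10.3 CPM in ID8 wild type and 36.7 to 71.8 CPM in KPC wild type, differed by -2.33 on the log2 scale. The inhibitors of p53 stood on opposite sides, Mdm2 higher and Mdm4 lower, with 65.1 to 67.3 CPM of Mdm4 in ID8 wild type and 113 to 138 CPM in KPC wild type (log2 difference -0.86). KPC libraries carried host cell RNA, by the leukocyte marker sums above, that ID8 libraries lacked, so tumour cells and host cells cannot be told apart in these levels.

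**Figure D4:**
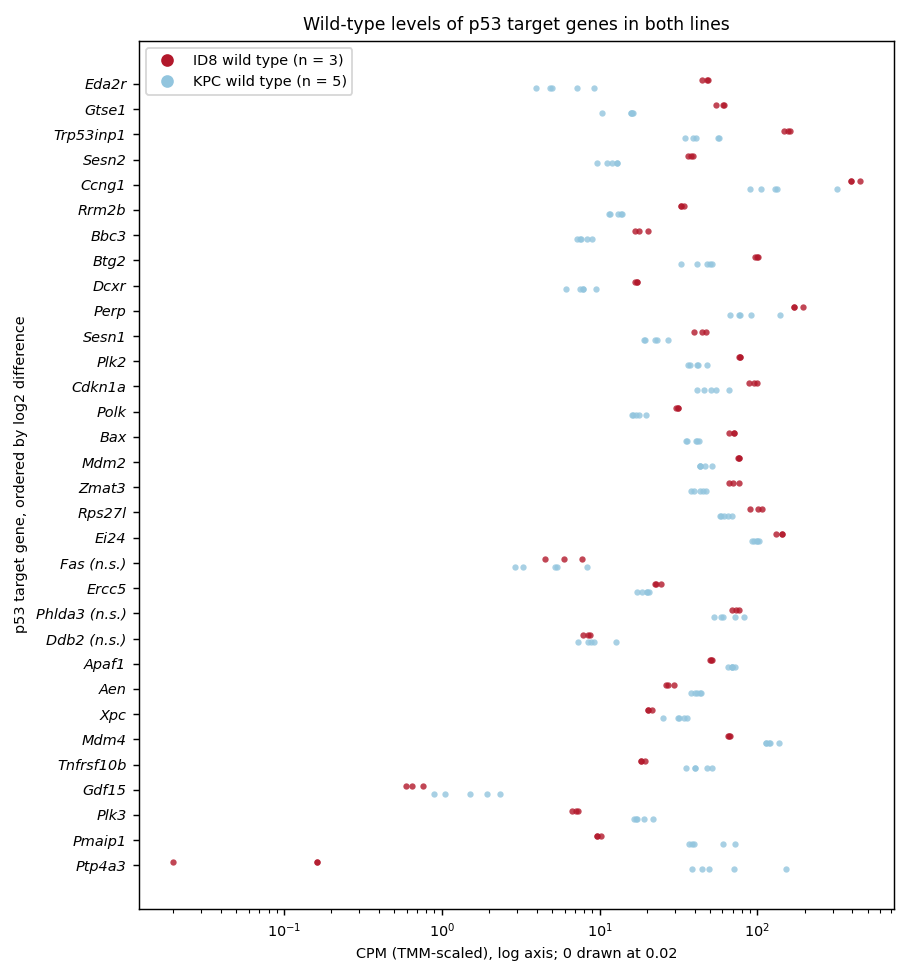
Level of each p53 target gene in wild-type libraries (x axis, TMM-scaled CPM on a log axis, 0 drawn at 0.02), with ID8 wild type (n = 3) in red and KPC wild type (n = 5) in light blue. Genes run down the page from the largest positive log2 difference, Eda2r at 2.96, to Ptp4a3, and n.s. marks the 3 members that did not pass.

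The wider pathway was read from lists of genes that are not members. Trp53 itself had 279 CPM on average in ID8 knockout and 246 CPM in ID8 wild type (log2 fold change 0.19, edgeR adjusted p = 0.0024), and 167 CPM in KPC knockout and 158 CPM in KPC wild type, which did not pass. Among p53 and its regulators, 9 of 20 tested rose and 4 fell in ID8, beside 25.4% and 25.5% of all genes, while 0 of 21 rose and 3 fell in KPC, beside 6.67% and 7.01% of all genes. The targeted gene Trp53bp1 is on this list and is 1 of the falls in each line. Usp28, the deubiquitinase that acts with 53BP1 on p53, fell in both knockouts, with log2 fold changes of -0.60 in ID8 and -0.36 in KPC. The damage kinase gene Atm rose by 0.79 in ID8. Cdkn2a, whose product p19Arf inhibits MDM2, had 0 counts in each of the 6 ID8 libraries and averaged 248 CPM in KPC knockout and 252 CPM in KPC wild type.

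Other p53 targets outside the list moved both ways. In ID8, 10 of 28 tested rose and 8 fell (35.7% and 28.6%, beside 25.4% and 25.5% of all genes), with a median log2 fold change of 0.04. In KPC 4 of 28 rose and 1 fell, beside 6.67% and 7.01% of all genes. Ddit4, an inhibitor of mTORC1, had a log2 fold change of -1.01 in ID8 knockout and of 0.54 in KPC knockout, both called, and the difference of both effects was -1.58 (edgeR adjusted p = 4.38e-06). Abcb1a, a drug efflux pump gene barely detected in ID8, rose in the knockout, with 45 counts over the 3 knockout and 5 over the 3 wild-type libraries (log2 fold change 3.04). Of 20 cell cycle genes that p21 represses through the DREAM complex, 6 rose and 3 fell in ID8 knockout, close on the higher side to the 25.4% of all genes, with 25.5% lower. In KPC knockout 0 rose and 2 fell, beside 6.67% and 7.01%. In ID8 wild type 19 of the 20 were higher than in KPC wild type, beside 33.4% of all genes.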

How the data were processed

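Gene-level counts of 16 tumour libraries were used as the authors deposited them, in 4 tables, 1 per group. Per the submitters' processing notes, the tools named are HISAT and RSEM 1.2.8, with the genome build GRCm39 (mm39). The values are expected counts, which the authors deposited without scaling: 7.92% to 8.96% of the values per table are not whole. Neither the strand setting nor the annotation release is stated.

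The counts were rounded, and genes without a row in 1 of the tables were set to 0 there. edgeR 4.0.16 in R 4.3.3 was run on all genes left by filterByExpr, with TMM scaling and a robust quasi-likelihood fit, and p-values were adjusted by Benjamini-Hochberg over all genes tested. A call is an adjusted p under 0.05. Each line was fitted alone. The comparison of wild types and the difference of the knockout effects came from 1 fit of the 4 groups. The SE is the log2 fold change over the square root of F, an approximation. DESeq2 1.42.0 and limma 3.58.1 served as alternatives, beside other scaling and filters, a replicate block, a fit of the 4 groups, and leaving libraries out. The fits were also run on simulated data. For the wild-type comparison and the difference of effects, both lines had the same simulated spread, unlike the real lines.

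The members and lists were chosen with earlier results of these data known. Per-sample values are given for members called in both lines and members changed at least 2-fold in either line. They are also given for Cdkn1a, Mdm2 and members with knockout effects called at least 2-fold different between the lines. From the other lists the rule names called genes that changed at least 2-fold. Usp28, Atm and Cdkn2a, and other members given by sample, were picked after their values were seen. No 2 libraries of a group agreed within sampling noise: the smallest chi-square per gene was 4.36. Same-numbered libraries were not paired, since the correlations of their deviations ran from -0.13 to 0.16 in ID8 and from -0.53 to 0.54 in KPC. The level of 1 marker of the leukocyte list is not reported here.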

Additional observations from a re-analysis of the deposited data

Results flagged for a closer look

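Of the 32 members, Trp53 and Trp53bp1, the knockout effect of 9 differed between the lines by the test of the difference itself (ID8 minus KPC, log2, edgeR adjusted p under 0.05), as did that of 21.8% of all genes. It was 1.01 for Zmat3, 0.97 for Aen, 0.80 for Phlda3, 0.52 for Plk2, 0.45 for Bbc3, 0.40 for Ei24 and 0.32 for Ercc5. For Pmaip1 the fitted value was -10.69, which depends on how 0 counts are handled and is no measure of size. For Trp53bp1, the targeted gene, the difference was -0.76.

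Single KPC libraries stood far from the others of their group in 7 of 68 tests, each of 1 gene (a member, Trp53 or Trp53bp1) within a group of 5, where chance flags about 1 in 20. KPC wild-type library 2 was high for Ccng1 (319.9 CPM) and Ptp4a3 (152.8 CPM). KPC knockout library 1 was high for Dcxr (18.97 CPM) and low for Zmat3 (32.93 CPM). Low values were also flagged for Gtse1 in KPC knockout library 5 (14.08 CPM) and KPC wild-type library 5 (10.41 CPM), and for Gdf15 in KPC knockout library 3 (0.973 CPM).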

How the results depend on the processing

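In ID8 the count of p53 target genes that rose stayed between 21 and 22 and of those that fell between 2 and 3 under every alternative run except the fit of the 4 groups together, with 9 higher members and 2681 genes called in all. In KPC that joint fit gave 7 higher members, 1 lower member and 3524 genes, DESeq2 gave 5 higher and 3162 genes, and limma-voom with quality weights gave 3156 genes. Without the 4 libraries with Acta1 above 1000 CPM, 1 member rose in KPC. Leaving out 1 library at a time gave 1 to 3 higher members in KPC and 934 to 3106 genes in all, the count being over 1.5 times lower without wild type 1, 2, 3 or 5 or knockout 1, 3, 4 or 5 and higher without wild type 4. For the difference of the knockout effects, limma-voom gave 2 lower members and 4902 genes, and leaving out 1 library gave 1 to 2 lower members, the 2 without KPC wild type 3. The wild-type comparison kept 20 to 21 higher and 9 lower members throughout. Reversed in sign were Ccng1 in KPC (0.13 without the Acta1-rich libraries, and -0.48 to 0.13 with 1 library left out), Zmat3 in KPC (-0.10 to 0.017 with 1 library left out) and the Mdm2 difference between lines (-0.021 without the Acta1-rich libraries); none of these passed the test, and the cause was not tested.

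With the replicate number as a block, 1 member rose in KPC, where Fas did not pass, and 21 rose in ID8; the numbers do not pair the samples.

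Low counts limit the tests of some members in ID8. Ptp4a3 could not be tested there. Gdf15, with 32 counts over the 3 knockout and 37 over the 3 wild-type libraries, was tested and not called. Its log2 fold change was -0.24 (edgeR, SE 0.321, adjusted p = 0.579).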

Other observations

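Pmaip1 stood out among genes that the ID8 knockout libraries lacked. Of 824 genes with counts in ID8 wild-type libraries and none in ID8 knockout libraries, it had the most counts in wild type, 546 over 3 libraries, and the next had 148. The genes beside it, in the order of the RefSeq annotation, were in part read in both genotypes. Lman1 averaged 101.9 ± 3.78 CPM in ID8 knockout and 88.9 ± 2.16 CPM in ID8 wild type, and Gnal 1.35 ± 0.198 CPM in ID8 knockout and 1.39 ± 0.435 CPM in ID8 wild type (SD, n = 3 each). Chmp1b averaged 56.5 ± 4.60 CPM in ID8 knockout and 45.4 ± 0.770 CPM in ID8 wild type (SD, n = 3 each). Impa2 averaged 19.8 ± 0.208 CPM in ID8 knockout and 27.2 ± 1.46 CPM in ID8 wild type (SD, n = 3 each), a log2 fold change of -0.45 that passed in edgeR. Sec11c and Mppe1 did not pass. Cidea had 0 CPM in ID8 knockout and averaged 0.018 CPM in ID8 wild type, Grp and Rax had 0 counts in both, and Ccbe1 and Mc4r, which flank it directly, had 0 counts in both genotypes as well. These genes were named after their values were seen.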
